A study of Mus musculus with 2 samples.

Results

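The genes described here encode the machinery that copies DNA before a cell divides. They were chosen as a named list of 46 mouse genes, and all 46 were found by symbol among the 21884 uniquely named protein-coding genes of GENCODE release M21. Their chromatin had been assayed by DNase-seq, in which the enzyme DNase I cuts DNA wherever it is not covered by nucleosomes, so that dense cutting marks open regulatory DNA. The tissue was liver from mouse embryos aged 13.5 days. There was 1 group of 2 biological replicates, of strain C57BL/6N,129, wild type apart from a yeast artificial chromosome named A85 YAC that was present in multiple copies. Both replicates share a donor label, sex was not collected, and the labels do not say which sequence the A85 YAC contains. No other condition was sampled, so the replication genes were set against all protein-coding genes.

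DNA replication is prepared and carried out in stages. The origin recognition complex marks origins, and CDC6 and CDT1 load the ring-shaped MCM2-7 helicase there before S phase, a step that geminin blocks once replication has begun. CDC45 and the GINS complex turn the loaded ring into an active helicase, after which primase, the replicative polymerases and the PCNA sliding clamp build the new strands. Many of these genes are textbook targets of the E2F transcription factors, which switch on S phase genes, and the liver at this age is an organ in which blood precursors and hepatoblasts divide quickly.

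The E2F letters at several of these promoters are shown first, because they are the sequence feature that differed most in share, as a ratio, between these genes and other promoters in the counts given further on. Each line holds 30 bases of the reference assembly GRCm38.p6 (the mm10 build) on the strand of the gene, 5′ to 3′, with the E2F match in capitals. In these 6 genes at least 50% of the letters of the match lay inside a footprint, a short stretch shielded from DNase I, in each replicate.
Orc1, chr4:108579416-108579445, plus strand: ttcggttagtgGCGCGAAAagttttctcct
Cdc6, chr11:98907830-98907859, plus strand: agtagagcggcTTTGGCGCgagttgacttt
Cdt1, chr8:122568036-122568065, plus strand: ggaactaccttTTTGGCGCcatggcgcaaa
Mcm3, chr1:20820275-20820304, minus strand: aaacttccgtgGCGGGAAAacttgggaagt
Mcm6, chr1:128359793-128359822, minus strand: gtatgcttttgGCGCGAAAagtgcgtgcgg
Pole, chr5:110286332-110286361, plus strand: acgtggagagcGCGCCAAAttctccccgga

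Mcm5, a helicase subunit gene, is shown at greater length because a footprint of both replicates covered a pair of overlapping matches there entirely. The line below gives the 250 bases before its annotated 5′ end, again with E2F matches in capitals. The first run of capitals holds 2 matches that overlap, and the second run ends at the base just before the 5′ end.
Mcm5, chr8:75109319-75109568, plus strand: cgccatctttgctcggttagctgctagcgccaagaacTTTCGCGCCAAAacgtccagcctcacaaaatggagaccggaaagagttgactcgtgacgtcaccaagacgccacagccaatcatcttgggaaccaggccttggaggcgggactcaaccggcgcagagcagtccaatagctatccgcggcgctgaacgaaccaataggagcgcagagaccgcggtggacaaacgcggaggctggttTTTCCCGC
The next line gives 30 bases around the first run with, this time, the bases that lay in a footprint of both replicates in capitals. The footprinted stretch spanned both overlapping matches and several bases on either side.
Mcm5 footprint, chr8:75109345-75109374, plus strand: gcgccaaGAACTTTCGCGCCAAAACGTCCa
For contrast, the promoter with the highest accessibility of the list, that of the polymerase delta catalytic subunit gene Pold1, held no E2F match in the window searched. Its 250 bases before the 5′ end are therefore all in lower case.
Pold1, chr7:44548850-44549099, minus strand: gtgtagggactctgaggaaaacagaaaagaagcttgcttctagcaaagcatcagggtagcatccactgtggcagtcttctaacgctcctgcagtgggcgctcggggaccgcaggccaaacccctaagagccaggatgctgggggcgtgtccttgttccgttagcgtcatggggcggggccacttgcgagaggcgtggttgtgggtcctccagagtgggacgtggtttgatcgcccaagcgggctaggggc

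The libraries held 76130 peaks in replicate 1 and 73852 in replicate 2, of which 45831 merged regions had a peak of both and are called shared. A peak's value is the authors' signal for that peak. Its normalization is not stated, but values came in whole multiples of one step per library, so a count could be recovered, with a median of 69 in replicate 1 and 126 in replicate 2. Intervals given below are 95% Poisson intervals of those counts on the value scale and cover counting error only. All 8 erythroid marker genes examined, Gata1 and Klf1 among them, had a shared promoter region, as did 3 of 6 hepatoblast markers, 1 of 5 macrophage markers and 0 of 5 markers of other organs. Alb and Hnf4a were among the hepatoblast genes without one. How far the mixture of cell types contributes to values at the replication genes was not tested.

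Every replication gene had an open promoter in both replicates. A shared region lay within 1 kb of a transcript start in all 46, whereas 58.4% of all protein-coding genes had one (12774 genes). The highest such region of each gene had a median value of 10.6 in replicate 1 and 8.74 in replicate 2 over the replication genes, against 5.96 and 5.04 over all genes with a region. The medians of the replication genes were thus 1.77 and 1.73 times as high. In bulk tissue, a promoter open in fewer cells and one less open in each cell cannot be told apart.

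The replication genes lay in the upper part of the range of open promoters but did not reach past it. Of the 46, 42 lay above the median of all open promoters, a mean value over the replicates of 5.53. The 75th percentile, 9.51, was passed by 22 of them and the 90th percentile, 13.1, by 9. None lay below the 25th percentile, 2.17. Their mean values ran between 3.40 at Pola1 and 20.1 at Pold1, while all genes with a region spanned 0.164 to 44.2.

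**Figure D1:**
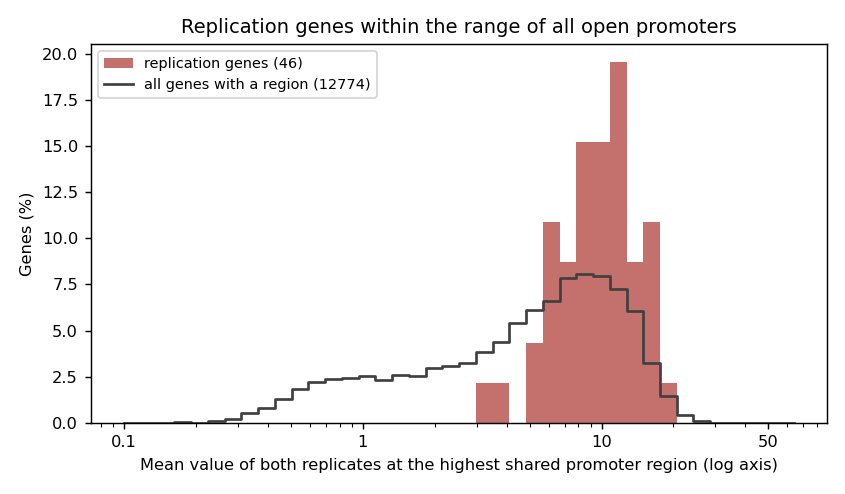
Share of genes (vertical axis, percent) by the mean value over both replicates of the highest shared promoter region (horizontal axis, log scale), as bars for the 46 replication genes and a line for the 12774 genes with such a region. The bars lie between 3.40 and 20.1, inside the range of the line, and leave out its low shoulder.

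The order of the genes was much the same in both libraries. Across the 46 genes, the log2 values of replicate 1 and replicate 2 had a Pearson correlation of 0.910 and a Spearman correlation of 0.936, a description of points that share their libraries and depth. The counts behind the values ran between 297 and 1891 in replicate 1 and between 439 and 2709 in replicate 2, so counting error was small beside the distance between the ends of the list.

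Among origin recognition genes, Orc1 stood highest and Orc3 lowest. Orc1, which encodes an ATPase of the complex, had 18.7 in replicate 1, with an interval of 17.7 to 19.6, and 12.6 in replicate 2, with one of 12.0 to 13.1, at chr4:108579281-108579460 over an exon. Orc3, another subunit gene, had 8.80 and 6.94. Orc1 was the higher of the pair in each replicate by more than either gene differed between replicates on a fold scale. Orc2, Orc4, Orc5 and Orc6 lay in between, with values between 9.33 and 13.3 in replicate 1 and between 7.12 and 11.3 in replicate 2.

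The 3 genes that control helicase loading were close to one another in replicate 2 and apart in replicate 1. Cdc6, the loading ATPase, had 17.1 in replicate 1 and 10.03 in replicate 2. Cdt1, which brings MCM2-7 to origins, had 12.4 and 10.03. Gmnn, the gene of the CDT1 inhibitor geminin, had 11.3 and 10.03. The lead of Cdc6 over the other pair therefore rested on replicate 1.

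The MCM2-7 helicase genes, whose products form a single ring, did not share a common level. Mcm4 had the highest mean, with 18.4 in replicate 1 and 12.95 in replicate 2. Mcm5 had 16.2 and 12.2 in a region that ended 9 bases before its annotated 5′ end. Both stood above the other 4 in each replicate, although the intervals of Mcm5 and Mcm2 overlapped in replicate 2.

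The other 4 helicase subunit genes formed a middle group and 1 low gene. Mcm2 had 11.1 in replicate 1 and 11.7 in replicate 2, one of 6 replication genes that were higher in replicate 2. Mcm6 had 10.5 and 8.25, and Mcm7 had 10.4 and 8.47, so that the order of these neighbours changed between replicates. Mcm3 was the lowest, with 7.38 and 4.70. Its value in replicate 1 had an interval of 6.79 to 8.003 and its value in replicate 2 one of 4.37 to 5.04, below every other helicase subunit gene in the same replicate.

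The helicase activation genes spanned a wide range, with GINS genes at the top. Gins2, which encodes a subunit of the GINS complex, had 21.7 in replicate 1 and 12.95 in replicate 2, in a region of 440 bp at chr8:120589041-120589480. Gins1 had 16.5 and 12.6, and Gins4 had 18.6 and 12.1. The fourth GINS gene, Gins3, was lower in both replicates, with 7.58 and 6.75.

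The partner of GINS in the active helicase had one of the lowest promoters. Cdc45 had 6.68 in replicate 1 (6.12 to 7.28) and 3.68 in replicate 2 (3.39 to 3.98), and its value in replicate 2 was below the median of all open promoters in that library. Cdc7, the kinase that fires origins, had 9.26 and 9.25, nearly the same in both libraries. Dbf4, its activating subunit gene, had 10.5 and 7.80, and Mcm10, which takes part in helicase activation, had 8.71 and 7.28.

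The clamp gene stood above all 5 clamp loader genes in each replicate. Pcna had 14.2 in replicate 1 (13.3 to 15.0) and 9.58 in replicate 2 (9.11 to 10.1). Rfc2 came next, with 12.0 and 9.23, and its interval in replicate 2 overlapped that of Pcna. Rfc5, the lowest by mean, had 8.78 and 6.59, and Rfc1 was nearly level with it, at 8.59 and 6.82.

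The polymerase genes held both ends of the whole list by mean value. Pold1 had 23.9 in replicate 1 (22.9 to 25.04) and 16.4 in replicate 2 (15.7 to 17.0), the highest of all 46 in each replicate, although its interval in replicate 2 overlapped that of Pold3 (15.4 to 16.7). Pola1, the catalytic subunit gene of polymerase alpha, had 4.15 (3.71 to 4.63) and 2.65 (2.41 to 2.91), and in replicate 1 Tyms, at 3.76, was lower still. Pola1 is the only one of the 46 on the X chromosome. Sex was not collected, so how the number of X chromosomes bears on its value was not tested.

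Within the 9 polymerase and primase genes of the list, the 3 delta genes had the highest values, a split seen in the values and not set beforehand. Pold3, an accessory subunit gene, had 18.7 in replicate 1 and 16.0 in replicate 2, and Pold2 had 13.4 and 10.3. The highest value among the alpha, primase and epsilon genes of the list was 7.39 in replicate 1 and 7.44 in replicate 2, both at Pola2. The 3 delta genes therefore did not overlap the other 6 in either replicate. Subunit genes outside the list did not follow the split: Pold4, of polymerase delta, had 8.68 and 6.13, below Pole3 (8.89 and 8.07) and Pole4 (9.83 and 10.28) of polymerase epsilon. Pole, the catalytic subunit gene of polymerase epsilon, had 6.78 and 5.74.

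The primase genes were among the few with the higher value in replicate 2. Prim1, the catalytic subunit gene, had 5.25 in replicate 1 and 5.79 in replicate 2. Prim2 had 6.14 and 6.91, and Pole2, the second epsilon gene, had 5.85 and 6.61. Prim1 was the lowest of these 3 genes in each replicate, although its interval overlapped those of the others in replicate 1. The intervals of Pole2 and Prim2 overlapped in both replicates, so the order of that pair was not resolved.

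The genes for replication protein A, which coats single-stranded DNA, lay close to one another. Rpa2 had 15.4 in replicate 1 and 10.8 in replicate 2, Rpa1 had 13.1 and 9.30, and Rpa3 had 13.9 and 9.01. The order of Rpa1 and Rpa3 changed between replicates. Fen1, the nuclease that trims Okazaki fragments, had 8.26 and 8.24, above Lig1, the ligase that joins them, with 6.77 and 6.27.

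The genes of nucleotide supply differed widely. Rrm2, the regulatory subunit gene of ribonucleotide reductase, had 13.8 in replicate 1 and 10.9 in replicate 2. Its partner Rrm1 had 9.75 and 7.65. Tyms, the gene of thymidylate synthase, had 3.76 and 3.95, the second lowest mean of the list.

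**Figure D2:**
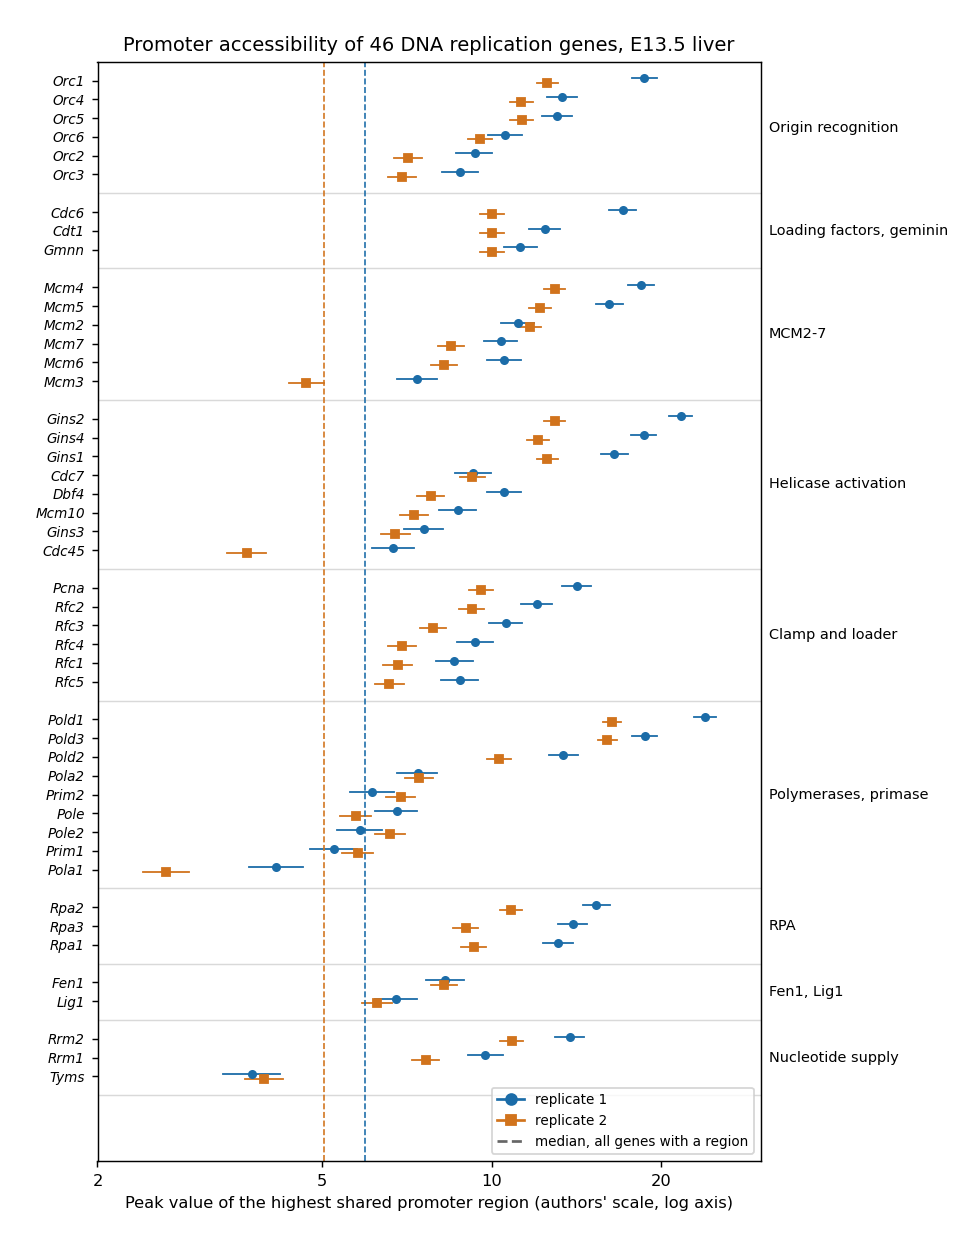
Value of the highest shared promoter region of each replication gene (horizontal axis, log scale), in replicate 1 (circles) and replicate 2 (squares), with 95% Poisson intervals as bars and genes grouped by role. Dashed lines mark the medians over all genes with a region, 5.96 in replicate 1 and 5.04 in replicate 2, and Pold1 and Pola1 have the highest and the lowest mean of the list.

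Classes of role overlapped more than they differed. Origin recognition and loading genes together (9 genes) had a median of 12.4 in replicate 1 and 10.03 in replicate 2. MCM2-7 and helicase activation genes together (14 genes) had 10.5 and 8.86, and clamp and loader genes (6 genes) had 9.97 and 7.41. Polymerase and primase genes (9 genes) had the lowest medians of these 4 sets, 6.78 and 6.91, but also the widest range, 4.15 to 23.9 in replicate 1. The range of the polymerase genes enclosed that of every other one of these sets in replicate 1, and no class stood apart from all others.

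The highest region sat at the annotated start in most of these genes. It covered the gene's 5′ end in 37 of the 46 (80.4%), and in 64.2% of all genes with a region. The median distance between the centre of the region and the 5′ end was 55 bp in the replication genes and 93 bp in all genes with a region. The centre lay upstream in 23 of the 46 replication genes, beside 6613 of the 12774 genes with a region. Its width was 180 to 480 bp, with a median of 240 bp, beside 260 bp for all genes with a region.

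In a few genes the highest region lay far from the annotated 5′ end of the gene. The region of Rfc2 lay 1235 bp from the gene's 5′ end, that of Lig1 1138 bp and that of Mcm7 1002 bp, each within reach of the start of another transcript of the gene. Counting from the gene's 5′ end alone, 44 of the 46 genes had a shared region within 1 kb, beside 53.7% of all protein-coding genes. Within 1 kb of any start, 23 genes had 1 shared region, 17 had 2 and 6 had 3.

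Peaks seen in 1 replicate also flanked these promoters. Over the 46 genes, 75 shared regions lay within 1 kb of a start, beside 31 regions of replicate 1 alone and 14 of replicate 2 alone. Those are 25.8% and 11.7% of the regions there, beside 15.2% and 17.5% over all genes with a shared promoter region.

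Many replication genes shared their open region with a neighbour. In 14 of the 46 (30.4%), the highest promoter region lay within 1 kb of a start of another protein-coding gene, and the same was true of 20.7% of all genes with a region. The 5 with the highest values were Mcm4, next to Prkdc, the gene of the DNA-dependent protein kinase, Orc1 next to Prpf38a, Gins1 next to Abhd12, Orc4 next to Mbd5, and Rpa3 next to Umad1 and Gm45062. The others were Orc3, Orc6, Mcm7, Cdc45, Dbf4, Pole, Rpa1, Fen1 and Lig1. At all 14, accessibility cannot be assigned to the replication gene alone. The median of the mean values was 9.74 in the 14 genes with such a neighbour and 9.32 in the 32 without.

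Away from promoters the number of open regions was much like that of other genes. A distal region here is a shared region more than 1 kb from every protein-coding start and within 50 kb of a start of the gene. At least 1 was found for 38 of the 46 (82.6%), beside 71% of all protein-coding genes. The mean number was 2.61 per replication gene and 2.32 per gene over all protein-coding genes, a ratio of 1.12. Genes with a shared promoter region are the closer comparison, and per gene they had more than the replication genes. Their total was 37605 over 12774 genes, beside 120 over the 46, a region being counted once for each gene near it. Erythroid marker genes, counted in the same way, had a mean of 8.88.

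**Figure D3:**
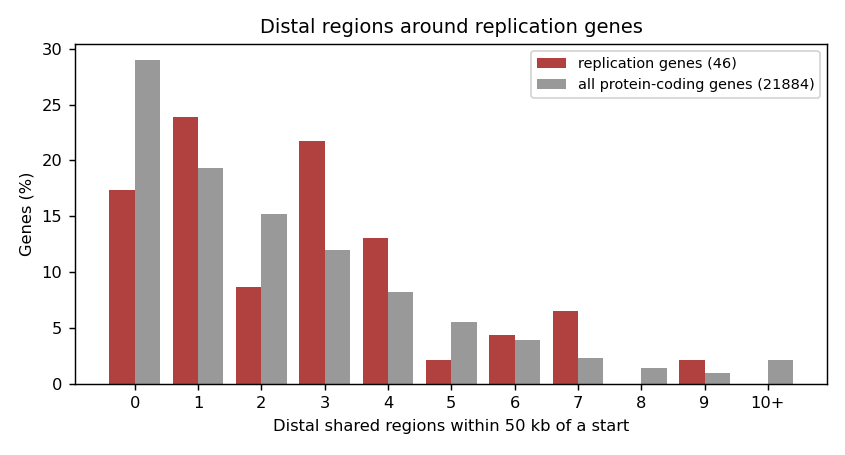
Share of genes (vertical axis, percent) by their number of distal shared regions within 50 kb (horizontal axis), with the 46 replication genes on the left and all 21884 protein-coding genes on the right of each pair. Among the replication genes 8 had none, 11 had 1, 10 had 3 and the most was 9, and the largest class of all genes was that with none.

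The 120 distal regions of the replication genes were 120 different regions. The replication gene was the nearest gene to 50 of them, and 22 of the 46 genes were nearest to at least 1. By place, 49 lay in introns, 18 over exons and 53 between genes, with 17 inside the replication gene itself. Their median value was 1.39, beside 1.04 over all 25847 distal shared regions. The latter set is wider, as it includes regions more than 50 kb from any gene. Regions within 50 kb of genes with a shared promoter region were not taken separately for this value.

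The genes with the most distal regions differed in whose regions these were. Cdt1 had 9, all in introns of other genes (Gm20388 and, for most, Piezo1), and was the nearest gene to none of them. Pola2, Pold1 and Rrm2 had 7 each, and Cdc6 and Gins2 had 6 each. Rrm2 was the nearest gene to 6 of its 7 and Gins2 to all 6 near it, whereas Pold1 was the nearest to none. The regions near Gins2 also all lay in introns of Gm20388, some of them in Gse1 as well, and none inside Gins2.

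The region with the highest mean, chr8:75083881-75084100, had 11.4 in replicate 1 and 6.72 in replicate 2. It lay between genes, 25579 bp upstream of Mcm5, but Hmox1, the gene of heme oxygenase, was nearer, at 9631 bp. The next highest by mean was at chr12:24706821-24707060, 1301 bp upstream of Rrm2, which was its nearest gene, with 5.56 and 5.06. In replicate 1 a region upstream of Mcm2, chr6:88915501-88915880, was higher than that of Rrm2, with 6.99, and had 2.44 in replicate 2.

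Footprints were dense at these promoters. A footprint of replicate 1 that overlapped one of replicate 2 was found within 1 kb of a start in all 46, beside 52.3% of all protein-coding genes. The mean number was 6.37 per replication gene and 2.76 per gene over all protein-coding genes. Since every replication gene had an open promoter, the closer comparison is with genes that had one: the median was 6 in the replication genes and 4 in those. Counted in single libraries, the median was 8 in the replication genes and 6 in genes with a region in replicate 1, and 11 in the replication genes and 10 in genes with a region in replicate 2.

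The number of footprints varied within roles. Orc6, a small subunit gene of the origin recognition complex, had the most, with 13, and Mcm7 and Gins1 had 11 each. Each of these had its highest promoter region within 1 kb of a start of another gene (Vps35, Ap4m1 and Abhd12, in that order). Their footprints, counted around every transcript start, therefore cannot be assigned to the replication gene alone. Mcm10 and Tyms had the fewest, with 2 each. Pold1, the gene with the highest accessibility, had 9. Within 50 kb of a start, the mean was 15.9 in the replication genes and 11.8 over all protein-coding genes. These counts include the footprints within 1 kb, of which the means were 6.37 and 2.76, so most of the difference lay at the promoters.

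Around the start itself, footprints covered more of the DNA in the replication genes. Of the bases between 250 before and 50 after the 5′ end, 22.2% lay in a footprint of replicate 1 and 24.3% in one of replicate 2, beside 15.4% and 18.5% in all genes with a region. In the 20 bp bin centred 30 bases before the 5′ end, 37.2% of the replication genes had a footprint in replicate 1 and 37.1% in replicate 2, beside 24.0% and 26.5% of all genes with a region. In the bin just before the 5′ end, centred 10 bases upstream, the 2 sets were close, with 26.8% of the replication genes and 24.7% of genes with a region in replicate 1, and 26.5% and 27.7% in replicate 2. The replication genes also had higher promoter values than other genes with a region, as given above, and the part of that in their footprints was not tested.

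**Figure D4:**
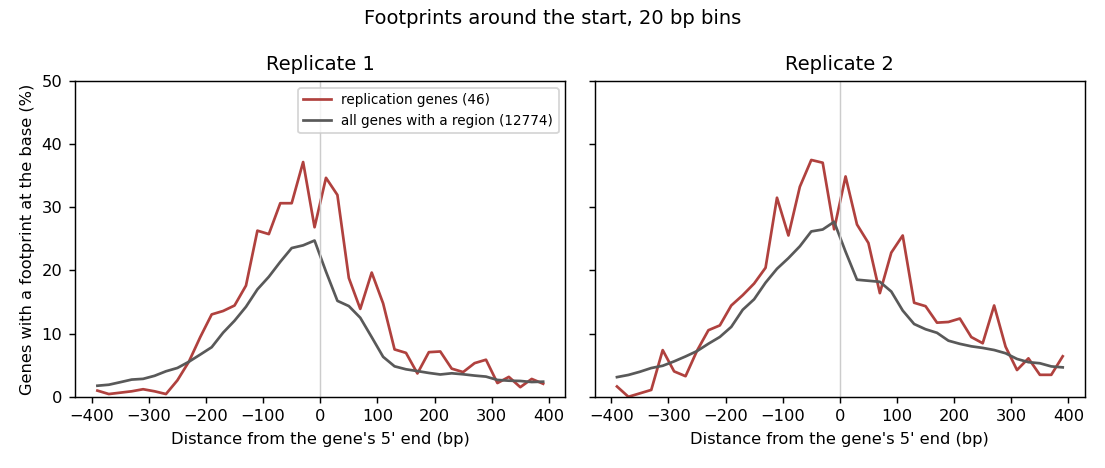
Share of genes with a footprint (vertical axis, percent, mean over 20 bp bins) by distance from the gene's 5′ end (horizontal axis, negative values upstream), for replicate 1 on the left and replicate 2 on the right, with 1 line for the 46 replication genes and 1 for the 12774 genes with a shared promoter region. Both lines peak near the 5′ end, and the line of the replication genes reaches 37.2% in replicate 1 and 37.5% in replicate 2.

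Of 8 kinds of motif searched in that window of 300 bases on both strands, E2F letters showed the largest ratio between the share of the replication genes and that of other promoters. The letters were TTTCCCGC, TTTGGCGC and TTTCGCGC, taken as exact matches, and overlapping matches were counted separately. A match was present in 12 of the 46 replication genes (26.1%), beside 2.31% of all protein-coding genes and 3.45% of those with a shared promoter region. A match is a description of the reference sequence and not a measured binding site.

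Of the 12 genes, 8 act in origin recognition or in the loading and make-up of the helicase. In the whole list, these roles hold 9 origin recognition and loading genes and 6 MCM2-7 genes. Matches occurred in 4 of 6 MCM2-7 genes (Mcm3, Mcm4, Mcm5 and Mcm6), in Cdc6 and Cdt1, and in Orc1 and Orc3. Among polymerase genes Pola1, Pole and Pole2 had one, and among clamp and loader genes Rfc3. In this window, none was found in the genes for helicase activation, replication protein A, lagging strand processing or nucleotide supply. This split depended on the letters: with 7-letter cores Cdc7, Rpa2, Rpa3 and Rrm1 also had a match, as did Rfc4 and Prim1, and only the lagging strand genes stayed without one.

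Footprints covered many of these letters. The 12 genes held 18 matches, of which 11 lay in a footprint of replicate 1, 10 in one of replicate 2 and 10 in both (55.6%). Over all genes with a shared promoter region, 22.4% of 465 E2F matches lay in footprints of both. The 10 belonged to 7 genes, Orc1, Cdc6, Cdt1, Mcm3, Mcm5, Mcm6 and Pole, each shown above with at least 1 of its matches. At Mcm5 the overlapping pair, whose first letters lay 213 and 209 bases before the 5′ end, was footprinted in both replicates. The match 8 bases before the 5′ end was footprinted in neither, but it lay just outside the highest promoter region of Mcm5, which ended 9 bases before the 5′ end. At Mcm4 the match was footprinted in replicate 1 only, and at Rfc3, Pola1, Pole2 and Orc3 in neither replicate. Of all bases of the window, 17.4% lay in footprints of both replicates in the replication genes, beside 11.4% in genes with a region. A higher share of matches in footprints of both replicates was also found for other letters, described below. It was 65.5% for the GC box, beside 41.8% in genes with a region, and 40.6% beside 26.1% for ETS letters. For the CCAAT box it was 19.1% beside 13.9%, and for the E box 25% beside 21.9%. The share was lower for NRF1 letters, 63.6% beside 74.0%, and 0% for CHR and GATA letters, beside 4.06% and 3.47%.

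The highest promoter region did not cover the annotated 5′ end in every gene, so the highest promoter region itself was searched as well, a choice made after seeing the data. There, 17 of the 46 genes (37.0%) had a match, beside 4.24% of genes with a region, although the regions of the replication genes were slightly narrower. This added Mcm2, Gins2, Gins3, Pold3 and Lig1 and lost none of the 12. Of the MCM2-7 genes, 5 of 6 then had E2F letters, Mcm7 being without one in this stretch. Pold3 was the eighth gene with a match footprinted in both replicates. Of the 23 matches in these regions, 47.8% lay in footprints of both, beside 28.4% over all genes with a region.

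Genes with and without E2F letters had close medians. The median of the mean values was 9.31 in the 12 genes with a match in the window and 9.74 in the 34 without. Of the 9 genes above the 90th percentile of open promoters, 4 had a match in the window (Mcm4, Orc1, Mcm5 and Cdc6), beside 12 of all 46. In the search of the highest region Gins2 and Pold3 had one as well. That makes 6 of 9 in that search, beside 17 of all 46 (37.0%). Pold1, Gins1 and Gins4 had none in either search.

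Other promoter letters were also frequent. The CCAAT box (CCAAT), bound by NF-Y, was present in 29 genes (63.0%), beside 39.0% of all protein-coding genes and the same share of those with a region. The letters CCGGAA, the core of sites for ETS factors, were in 23 (50%), beside 17.4% and 26.2%. The letters GCGCATG, for NRF1, were in 8 (17.4%), beside 4.95% and 6.77%.

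The remaining letters exceeded their share in other open promoters by a smaller ratio, or lay below it. The GC box (GGGCGG), bound by SP factors, was in 33 genes (71.7%), beside 43.0% of all protein-coding genes and 60.9% of those with a region. The E box CACGTG was in 7 (15.2%), beside 7.73% and 10.1%. CHR letters (TTTGAA or TTTAAA), known from genes of late cell cycle stages, were in 11 (23.9%), beside 25.9% and 20.5%, and 0 of their 14 matches lay in a footprint of either replicate, where 7.30% in replicate 1 and 8.27% in replicate 2 did over genes with a region. AGATAA, the letters of erythroid GATA factors, occurred in 1 gene, Orc2, beside 10.2% and 6.58%.

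**Figure D5:**
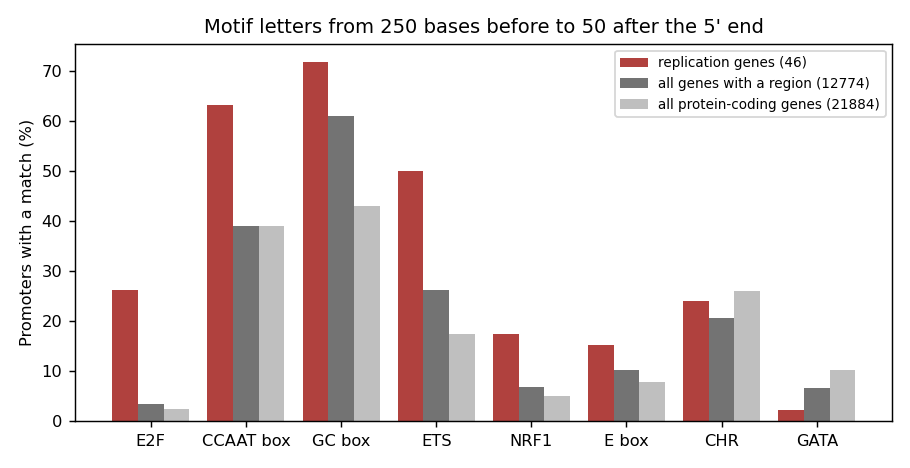
Share of promoters with at least 1 match (vertical axis, percent) for 8 kinds of motif (horizontal axis), as 3 bars each for the 46 replication genes, the 12774 genes with a shared promoter region and all 21884 protein-coding genes. The E2F bars are 26.1%, 3.45% and 2.31%, and the GATA bar of the replication genes, 2.17%, is below the other two.

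These windows were rich in CpG. The median number of CpG dinucleotides in the 300 bases was 22.5 in the replication genes, beside 19 in genes with a region and 11 in all protein-coding genes. The median GC content was 59.0% in the replication genes, beside 59.7% and 55.0%. The E2F, GC box and NRF1 letters are themselves rich in G and C, and the part of base composition in their shares was not tested.

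The replicates were last compared at these promoters, which is a comparison of 2 libraries and not of conditions. The log2 ratio of replicate 2 over replicate 1 was set to 0 at the median of all shared regions, where replicate 2 had 0.878 times the value of replicate 1. On that scale the replication genes had a median of -0.16 with an SD of 0.25, and all genes with a region had -0.03. The ratio was below 0 in 34 genes and above 0 in 12.

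Over all genes with a region, the ratio was lower at higher promoters. Above the 75th percentile of values, the median was -0.21 over 22 replication genes and -0.20 over all genes with a region. Between the 50th and the 75th percentile it was -0.13 over 20 replication genes and -0.10 over all. The lowest ratios of the list were at Cdc45 (-0.67), Cdc6 (-0.58) and Gins2 (-0.55), and the highest at Pole2 (0.36), Prim2 (0.36) and Prim1 (0.33).

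Genes that work beside these in replication had promoters with like values. Of 37 further replication and chromatin assembly genes, all 37 had a shared promoter region, with a median of 11.2 in replicate 1 and 8.61 in replicate 2. Chaf1b, a subunit gene of the chromatin assembly factor that loads histones behind the fork, had 18.9 and 18.0. Tk1, the gene of thymidine kinase, had 4.14 and 3.77, near Tyms in level. Their mean number of footprints within 1 kb was 6.38, beside 6.37 for the 46 replication genes.

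The regulators of entry into S phase were also all open. All 24 had a shared promoter region, with a median of 7.95 in replicate 1 and 6.47 in replicate 2. Ccne1, which encodes cyclin E1, was the highest, with 20.8 and 19.1, and E2f8, a repressor of the E2F family, had 18.1 and 12.6. Ccnd2, a D-type cyclin gene, was the lowest, with 2.28 and 1.66. The 46 replication genes had the higher median of the 2 lists in both replicates, and the ranges of the lists overlapped.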

How the data were processed

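The 2 DNase-seq libraries are biological replicates of 1 group, from embryonic mouse liver, per the labels. On build mm10, the authors derived peaks, footprints and stretches with a false discovery rate from each library's own filtered alignment, per the notes that accompany the deposited files. The deposited peaks carry a signal value, whose normalization is not stated. The deposited stretches carry an FDR, a q-value that is below 0.05 in every line, and the deposited footprints carry a p-value or FDR of 0.01 throughout. No source used here names the aligner, the callers or their versions.

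The longer of each library's peak lists was used. Peaks of both replicates that overlapped by at least 1 bp were merged, and a merged region takes the highest peak value of each replicate. Counts were recovered by dividing values by the library's step, with 100% of values whole within a tolerance of 0.05 of a step. Median counts per peak were 69 and 126, and total depth is unknown. Starts came from GENCODE M21 and sequences from the reference genome GRCm38.p6 of RefSeq, read by coordinates. Motif windows ran from 250 bases before to 50 after the gene's 5′ end.

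No test was run over the list: with 1 group there is no contrast, and counts and medians stand beside those of all genes. The members and lists were chosen with earlier results of these data known. Of 132 genes in all lists 131 matched the annotation. Named with values were the MCM2-7 genes, the highest and lowest gene of each role, those with most distal regions, extreme replicate ratios and shared promoters; the other genes named were chosen after their values were seen. Merging and overlap were tested on simulated regions. Python 3.11.15, numpy 2.4.6, scipy 1.17.1, pandas 2.3.3 and matplotlib 3.10.9 were used. Alternatives were the shorter peak lists, other windows and overlaps, other motif letters and leaving out each replicate.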

Additional observations from a re-analysis of the deposited data

How the results depend on the processing

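The number of replication genes with an open promoter was 46 under every alternative except 5′ ends alone, which gave 44 beside 53.7% of all protein-coding genes, and the median value of 9.41 ranged from 8.74 to 10.6 when either replicate was left out. The median replicate ratio was -0.17 with the shorter peak lists and -0.18 with the nearest region. The mean number of distal regions, 2.61, depended on the definition: it was 1.72 with the shorter lists, 1.39 within 20 kb, 5.04 within 100 kb and 2.54 when peaks had to overlap by 50% of the shorter one, and 4.57 to 4.61 in single replicates. Over all protein-coding genes the same settings gave 1.54, 1.08, 4.25, 2.27 and 3.74 to 3.95, so the replication genes had the higher mean of these 2 sets in each. Genes with a shared promoter region, which had more distal regions per gene than the replication genes in the main setting, were not counted under these alternatives. The mean number of footprints, 6.37, was 8.28 to 10.98 in single replicates, beside 3.99 to 6.59 over all genes. E2F letters were found in 22 replication genes (47.8%) when the window reached 500 bp to either side, beside 5.84% of all protein-coding genes. With 7-letter cores 18 genes (39.1%) had a match, beside 9.87% of all protein-coding genes and 14.4% of those with a region. The size of the E2F contrast thus depended on the letters chosen, and with the cores its ratio was close to that of NRF1, 17.4% beside 6.77% of genes with a region. No paired analysis was possible because there is only 1 group. Why these counts moved, beyond the wider or narrower definitions themselves, was not tested. Total depth is unknown; the counts behind the promoter values were 297 or higher.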
